A study of Mus musculus with 20 samples.

Results

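The regions described here are stretches of the mouse genome that carried 5-formylcytosine (5fC) peaks in the hindbrain of both wild-type (WT) and Tdg null embryos and in no other WT tissue profiled. They were selected on the peaks themselves. A member is an autosomal run of 100 bp bins under a peak in at least 2 of 4 WT and at least 3 of 4 Tdg null hindbrain libraries, at least 200 bp long, that touches no peak of the 6 WT heart, liver and carcass libraries. This gave 1912 regions, covering 888.4 kb or 0.0371% of the ungapped autosomes. The 20 libraries of the series hold 1479670 autosomal peaks in all, and a member lies under several of them. The peaks of the 14 libraries that chose the regions are therefore given as a description, and so are those of the 5 usable libraries of Tdg null heart, carcass and liver. The choice did not use these 5, but it did use the WT peaks of the same tissues.

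The libraries are affinity pull-downs of 5fC from dissected embryos at E11.5. Hindbrain came from 4 litters called A, O, Q and Z, with 1 WT and 1 homozygous Tdg null embryo each, while heart, liver and carcass (the rest of the body) came from 2 WT and 2 null embryos in pairs a and b. The null allele is constitutive, carries a neomycin marker and can encode no TDG with a catalytic domain, and both genotypes descend from crosses of heterozygous parents. The null liver of pair b, which the study set aside for poor quality, held 206 autosomal peaks and none over a member, and it is left out of the values below. The labels list no drug or other agent for either genotype.

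5fC arises when TET enzymes oxidise 5-methylcytosine by way of 5-hydroxymethylcytosine. A further oxidation step gives 5-carboxylcytosine. Thymine DNA glycosylase (TDG) removes both late forms from the strand, and repair of the gap leaves a plain cytosine. Embryos without TDG keep the base where it would otherwise be removed, so a site that is detected with TDG present is one where 5fC could be captured despite excision.

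To show what these regions look like, 200 bases around the midpoint are printed for the 6 longest members under peaks of all 8 hindbrain libraries that touch no untranslated region and met the limits on printed sequence. Sequences are from the plus strand of NCBIM37 (mm9), 5′ to 3′, with CpG dinucleotides, the main substrate of methylation, in capitals. The first 3 windows lie between genes at chr15:73992601-73992800, chr15:96378401-96378600 and chr6:31038751-31038950, and are named after the gene with the nearest start site. The window of Kif5c, which encodes a neuronal kinesin heavy chain, lies in its intron at chr2:49511051-49511250. The last 2 lie in introns of other transcripts at chr4:63263151-63263350 and chr6:31669551-31669750.
Gm7935: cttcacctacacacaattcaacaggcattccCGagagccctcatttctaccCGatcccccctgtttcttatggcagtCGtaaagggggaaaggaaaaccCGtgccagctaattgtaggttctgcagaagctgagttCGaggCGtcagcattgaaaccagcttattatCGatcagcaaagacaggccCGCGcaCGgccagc
Scaf11: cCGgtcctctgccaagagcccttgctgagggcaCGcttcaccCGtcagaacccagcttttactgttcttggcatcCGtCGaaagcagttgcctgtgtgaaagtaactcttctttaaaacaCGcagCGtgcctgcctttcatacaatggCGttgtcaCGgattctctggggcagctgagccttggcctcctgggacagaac
AB041803: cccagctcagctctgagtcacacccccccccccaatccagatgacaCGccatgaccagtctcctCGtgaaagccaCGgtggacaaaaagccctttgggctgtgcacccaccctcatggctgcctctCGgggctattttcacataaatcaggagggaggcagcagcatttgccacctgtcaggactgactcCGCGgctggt
Kif5c: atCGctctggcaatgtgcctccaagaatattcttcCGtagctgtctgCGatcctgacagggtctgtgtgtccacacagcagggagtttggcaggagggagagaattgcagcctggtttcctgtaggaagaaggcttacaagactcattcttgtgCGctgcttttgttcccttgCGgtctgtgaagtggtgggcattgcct
1700018C11Rik: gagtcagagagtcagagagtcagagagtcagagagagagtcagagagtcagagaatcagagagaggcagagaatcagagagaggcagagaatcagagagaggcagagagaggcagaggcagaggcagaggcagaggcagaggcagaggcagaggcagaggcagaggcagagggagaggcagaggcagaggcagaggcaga
Podxl: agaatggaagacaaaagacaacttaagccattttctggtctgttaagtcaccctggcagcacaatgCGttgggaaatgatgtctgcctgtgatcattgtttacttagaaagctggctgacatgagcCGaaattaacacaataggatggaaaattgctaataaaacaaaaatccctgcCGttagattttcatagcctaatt

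The windows near Gm7935 and Scaf11 hold 10 and 9 CpGs, the AB041803 window 6, Kif5c 5 and Podxl 3. The window nearest 1700018C11Rik holds 0 CpGs and is a tandem repeat of a few bases. These windows show both kinds of sequence among the members: CpG-bearing sequence, and a small class of tandem repeats.

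The 6 regions also differed in the other null tissues. Near Gm7935 the hindbrain peaks were 800, 1200, 1400 and 900 bp long in WT litters A, O, Q and Z and 1500, 1500, 1400 and 1600 bp in the null litters in the same order. The Kif5c region had WT peaks of 300, 700, 700 and 600 bp and null peaks of 800, 700, 800 and 1000 bp. In the CpG-free region nearest 1700018C11Rik all 4 WT peaks were 700 bp long, as long as the null peaks of litters A, Q and Z, and that of null litter O was 500 bp. The Gm7935 region was also under peaks of both null carcasses, 1700 and 1800 bp long, the null heart of pair a and the null liver, whereas the repeat was under none of the 5 null libraries of other tissues.

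Peaks in 2 litters made up most of the WT side. At the midpoint of the 1912 members, a peak was present for 98.5% in WT litter Q, 94.6% in WT litter O, 15.1% in WT litter A and 6.12% in WT litter Z. These libraries differed to the same order in their total numbers of autosomal peaks, at 21063 for Q, 8902 for O, 1515 for A and 1507 for Z. Of the members, 1542 (80.7%) were covered in O and Q alone, and 370 (19.4%) had a peak of A or Z. With at least 2 of 3 WT libraries required, 350 regions were found without litter O and 274 without litter Q, but 1822 without A and 1873 without Z. Exactly 2 WT libraries covered 1671 members, 3 covered 209 and 4 covered 32. Sequencing depth is unknown from these files, which hold peak positions without heights or read numbers, so a missing peak in litter A or Z gives no upper limit on 5fC there.

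On the null side, coverage at the midpoint was 84.8% in litter A, 98.6% in O, 99.7% in Q and 99.6% in Z. All 4 null libraries covered 1582 members (82.7%), and of the 330 covered by 3, litter A was the one missing in 290. Litter A was also lowest over all hindbrain null stretches, at 83.7% against 87.9% to 96.6% in the other litters. The null library of litter A held 119321 autosomal peaks, within the range of 103099 to 131192 over the 4 null libraries.

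**Figure D1:**
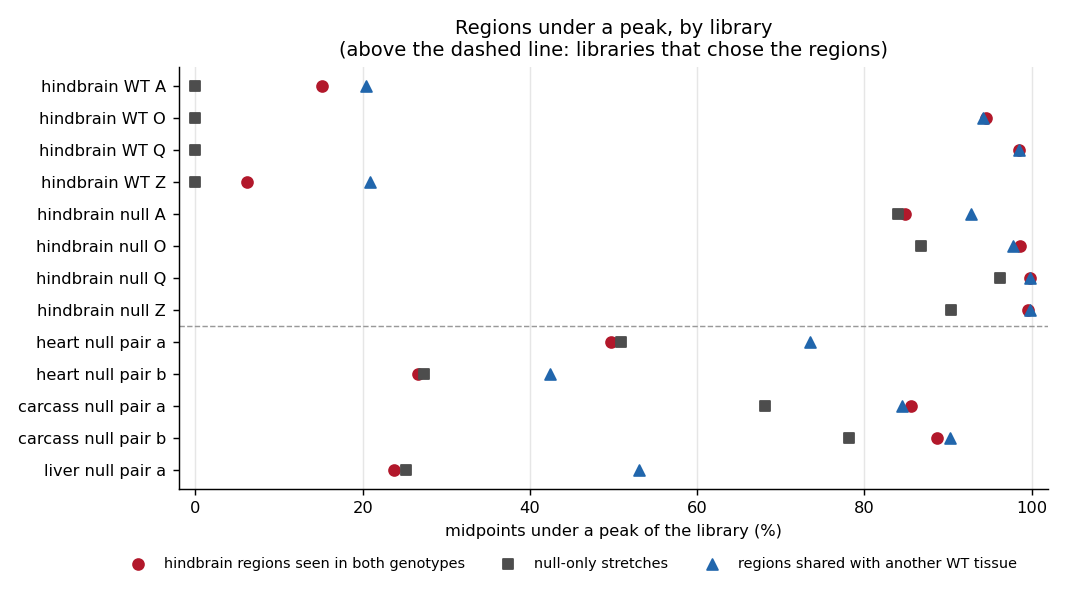
Share of midpoints (%, horizontal axis) under a peak in each library (vertical axis) for the hindbrain regions seen in both genotypes (circles), hindbrain null-only stretches (squares) and both-genotype regions shared with another WT tissue (triangles). Below the dashed line, in libraries the choice did not use, the circles lie above the squares in both null carcasses (85.5% and 88.7% against 68.1% and 78.1%) and next to them in null heart and liver.

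On the WT side the threshold cut through a graded distribution. Stretches under at least 3 null libraries and exactly 1 WT library numbered 7727, those under exactly 2 WT libraries 1738. On the null side, stretches under at least 2 WT libraries and exactly 3 null libraries numbered 355. Those under exactly 2 null libraries numbered 111, exactly 1 null library 105 and no null library 184, so the numbers did not fall at every step. These are separate runs of bins in each class, so they do not add up to a whole. Of the 65994 hindbrain null stretches (runs under at least 3 null libraries, free of other WT peaks), 2.82% held a member. This last share is fixed by the choice itself and is given as a description.

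Whether peaks of 3 embryos tell where another embryo has one was then measured by leaving 1 library out of the definition. Null stretches covered by at least 2 of the other 3 WT libraries were under a peak of the left-out WT library in 72.2% of cases for litter O and 90.4% for Q, but 11.03% for A and 4.31% for Z. Null stretches without any peak in the other 3 WT libraries were covered in 1.75%, 7.92%, 0.124% and 0.0773%, respectively. The difference was positive in 4 of 4 litters, with a mean of 42.0 percentage points ± 40.2 (SD, n = 4; two-sided exact sign-flip permutation p = 0.13, the smallest 4 litters allow). For the null side, stretches under at least 2 WT libraries were used, and those covered by all 3 of the other null libraries were set against those covered by none. This stricter contrast, which cannot be set beside the WT one, gave 84.5 percentage points ± 9.87 (SD, n = 4; two-sided exact sign-flip permutation p = 0.13), lowest in litter Z at 73.1 and highest in litter O at 95.5. Neither test could pass 0.05 with 4 litters. The same hindbrain libraries also chose the members, so both contrasts only describe how far peaks recur between embryos.

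Members were short, and by the rule each lay inside a null run at least as long as itself. Their lengths ran from 200 to 2000 bp with a median of 400 bp, and the null run that held each member had a median of 800 bp (interquartile range 600 to 1000 bp). In WT and null libraries that both covered a member, the centres of the overlapping peaks lay a median of 50 bp apart in 15 of the 16 library pairs and 100 bp apart for WT Z against null O. Between 94.2% and 99.6% of the bases of WT peaks lay inside the null peak, and the WT peak was 0.44 to 0.75 times as long. Pairs from the same litter did not stand out from pairs of different litters by these measures. The rule requires WT and null peaks to overlap at a member, so part of this nesting follows from the choice. At 500 bp from the midpoint, coverage had dropped to at most 9.57% in the 4 WT libraries, while it was 21.4% to 42.1% in the null libraries.

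**Figure D2:**
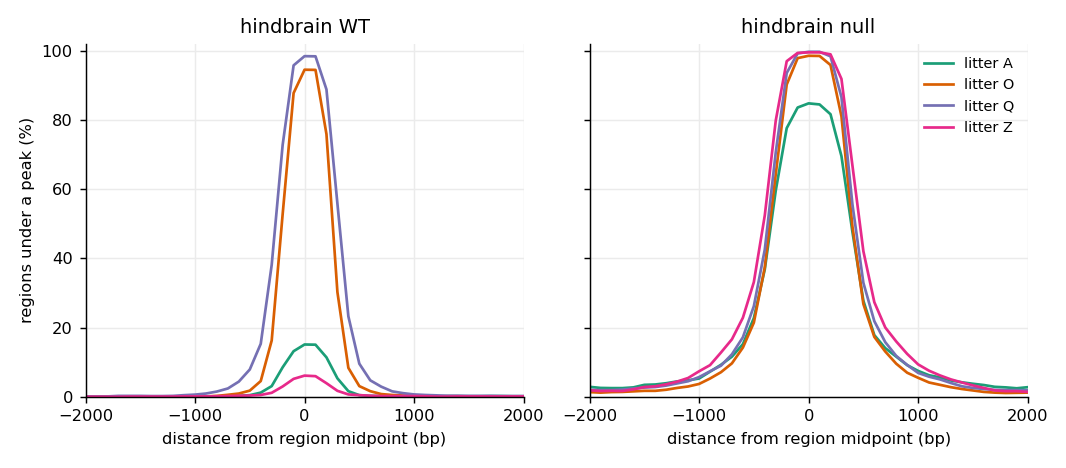
Share of the 1912 members under a peak (%, vertical axis) by distance from the region's midpoint in bp (horizontal axis), one line per litter, for WT (left) and Tdg null hindbrain (right). WT litters O and Q reach 94.6% and 98.5% at the midpoint and litters A and Z 15.1% and 6.12%, and the null profiles are wider.

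In the null carcass the members were marked more often than null-only stretches. Their midpoints were under a peak in 85.5% (null carcass pair a) and 88.7% (pair b), against 69.7% and 79% of all hindbrain null stretches. Among 57352 null-only stretches, which touch no WT peak of any tissue, the shares were 68.1% and 78.1%, so the members were higher by 13.96 percentage points on average (17.4 and 10.6, n = 2 embryos, not tested). Without WT litter Q the mean difference was 8.37 percentage points. In null heart the members were at 49.7% (pair a) and 26.6% (pair b), against 50.9% and 27.4% of all null stretches. In the null liver of pair a they were at 23.7%, against 25.1%. Taken over all lengths, the members in these 3 libraries lay within 1.5 percentage points of the background.

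By comparison, the 3460 both-genotype regions that the choice dropped, since a WT peak of heart, liver or carcass touched them, were more often marked in null heart (73.5% and 42.4%) and null liver (53.1%). In null carcass they were at 84.5% and 90.3%, close to the members. Part of that order follows from the choice, which sets members and dropped regions apart by WT peaks of the same tissues. The WT libraries behind the exclusion held 41464 and 34657 autosomal peaks in carcass, 5881 and 5418 in heart and 16368 and 1740 in liver. Midpoints of dropped regions were under WT carcass peaks in 77.1% and 73.5%, and under those of each WT heart or liver library in 4.54% to 18.5%. The exclusion thus rested mostly on carcass.

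Longer null stretches were more often covered in every tissue, so the comparison was repeated within length classes of null stretches under all 4 null libraries. At 800 bp or more, stretches with at least 2 WT libraries at the midpoint (759) were covered in null carcass in 95.9% and 96.7%, against 89.5% and 94.5% of those with none (11353). In null heart the order was opposite, with 59.4% and 32.0% against 69.6% and 40.8%, and so it was in null liver, with 29.3% against 40.5%. At 500 to 700 bp the heart and liver shares were lower too (42.7%, 23.4% and 18.95% against 53.3%, 29.0% and 26.3%), while the carcass share was higher in pair a (81.9% against 74.97%) and by less in pair b (85.5% against 83.9%). The 26 stretches of up to 400 bp with at least 2 WT libraries were below those with none in all 5 libraries (carcass 30.8% and 34.6% against 50.3% and 64.2%).

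Across the 3 null tissues, 777 members (40.6%) were marked in carcass only, against 34.1% of null-only stretches. A further 531 (27.8%, against 25.5%) were marked in heart and carcass and 396 (20.7%, against 20.6%) in heart, carcass and liver, of which 235 had a peak in all 5 libraries. Marking in heart without carcass or liver was found for 30 members (1.57%, against 4.61% of null-only stretches). No peak of any of the 5 libraries lay over 121 members (6.33%, against 10.6%).

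The members held more CpGs than null-only stretches at a like GC content, and exceeded evenly spaced windows in both. In 500 bp around the midpoint they held a median of 10 CpGs (interquartile range 8 to 13), against 8 in null-only stretches, 12 in the regions shared with another WT tissue and 3 in windows spaced every 10000 bp along the autosomes. GC content was the same in members and null-only stretches, with a median of 47.2% in both, and 41.8% in the evenly spaced windows. The observed over expected CpG ratio accordingly differed, with medians of 0.377 in members, 0.281 in null-only stretches and 0.157 in evenly spaced windows. Within bands of 5 percentage points of GC the difference remained. At 40 to 45% GC, members held 9.21 CpGs ± 2.98 (SD over 483 regions) and null-only stretches 6.69 ± 2.55, and at 50 to 55% GC 12.4 ± 4.09 and 9.60 ± 3.54. Within the length classes of null stretches under all 4 null libraries, the difference between stretches with at least 2 WT libraries and those with none was smaller below 800 bp than above. At 500 to 700 bp they held 9.73 and 8.58 CpGs on average, at up to 400 bp 8.46 and 6.93, and at 800 bp or more 11.9 and 9.59. These are differences between sets of regions, which are not replicates, and they carry no test.

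**Figure D3:**
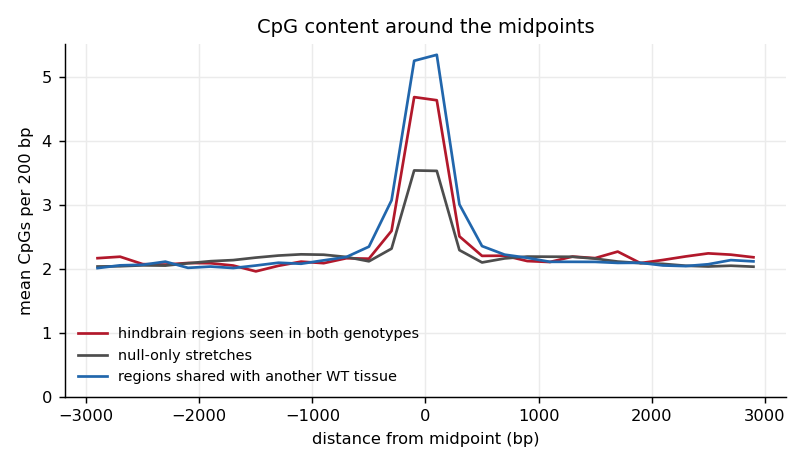
Mean number of CpGs per 200 bp (vertical axis) by distance from the midpoint in bp (horizontal axis) for members, null-only stretches and regions shared with another WT tissue. The 3 lines meet at about 2 CpGs beyond 1000 bp, and next to the midpoint members reach 4.68, null-only stretches 3.54 and shared regions 5.25.

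The excess was local. In the 200 bp before the midpoint members held 4.68 CpGs on average and null-only stretches 3.54, while at 1000 to 1200 bp from it the values were 2.11 and 2.19. CpG content was higher with more WT libraries at the midpoint of a null stretch, going from 8.31 ± 4.12 with none (SD over 58141 stretches) through 9.37 ± 3.63 with 1 and 10.5 ± 3.68 with 2 to 12.3 ± 4.77 with 3. The shares in null carcass were higher with 3 WT libraries than with none, at 86.5% and 88.7% against 68.4% and 78.3%. In pair b the share was level from 2 to 3 WT libraries. In null heart the shares were lower with 3 than with none, at 45.95% and 23.8% against 51.0% and 27.4%. The null liver share was lower too, at 22.7% against 25.3%.

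The 32 stretches with all 4 WT libraries broke the order of CpG content and of the carcass shares. They held 7.26 CpGs ± 6.73 (SD), with a median of 4, and were covered in null carcass in only 37.5% and 40.6%. In these, 17 windows of 200 bp were of low complexity, meaning that fewer than 70% of their 195 overlapping words of 6 bases were distinct, 14 were not, and 1 was not scored. The 17 had 3.24 CpGs on average and the 14 had 12.1, with 85.7% of the 14 under a peak in each null carcass. Without low-complexity windows CpG content thus stood at 10.5 with 2, 12.4 with 3 and 12.1 with 4 WT libraries.

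**Figure D4:**
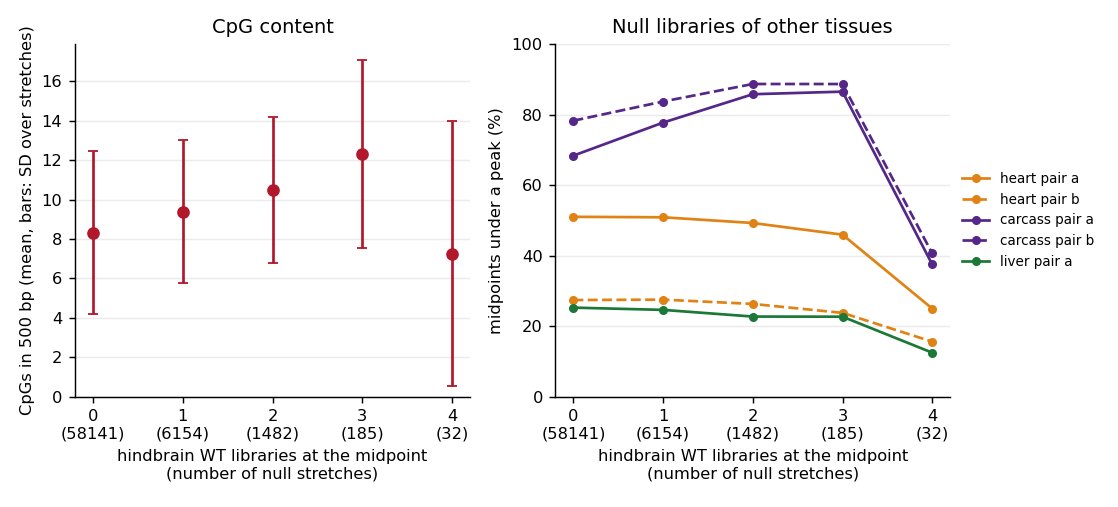
Null stretches sorted by the number of hindbrain WT libraries with a peak at the midpoint (horizontal axis, number of stretches in brackets). Left, mean CpGs in 500 bp with SD over stretches, going from 8.31 to 12.3 and then 7.26 in the last class. Right, share (%) under a peak in each null library of another tissue, where the carcass lines go from 68.4% and 78.3% to 86.5% and 88.7% before the last class, in which 17 of 32 stretches are of low complexity.

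Low complexity was found in 42 members (2.198%) against 0.300% of null-only stretches, 3.06% of regions shared with another WT tissue and 2.66% of evenly spaced windows. Of the 42, 28 had no peak in the other null tissues and 12 lacked a peak in the null hindbrain of litter O. These 12 were 44.4% of the 27 members that litter O missed. The part of sequence repetition in these peaks was not tested. All 10 members without any CpG in 500 bp were among the 42, were under at least 3 WT libraries and were under none of the 5 other null libraries, and 7 of the 10 lacked a peak in null litter O. Among 57349 null-only stretches none lacked a CpG in 500 bp, the lowest number being 1, but 1.07% of the regions shared with another WT tissue and 7.80% of evenly spaced windows did, both above the 0.524% of members.

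Named by the nearest start site, the 10 CpG-free regions include one 55262 bp from the start of Frmd4a at chr2:3883001-3884000, with hindbrain WT peaks of 1600, 2400 and 2300 bp in O, Q and Z and null peaks of 1600, 1400 and 1100 bp in A, Q and Z. Another lies 8352 bp from the start of 1700048O20Rik at chr9:121838501-121839300, where GC content was 75% and the WT peaks, at 1400 to 2600 bp, were as long as or longer than the null peaks of the same litters, which were 2600 bp in A, absent in O, 1200 bp in Q and 800 bp in Z. The region nearest Bmp6, which encodes a bone morphogenetic protein, had peaks of 700, 700, 800 and 700 bp in WT and 400, 300, 700 and 600 bp in null libraries. In the last 2 of these regions no WT peak was shorter than the null peak of its litter. The longest members outside the other null tissues were 2000 bp nearest Sp110, 1800 bp nearest Gm15319, 1400 bp in an intron of Bptf, which encodes a chromatin remodelling subunit, and 1100 bp in Gm10801. The first 2 and the last of these lacked a peak in null litter O, and the Bptf region, with 29 CpGs in 500 bp, had peaks in WT A, O and Q and all 4 null libraries.

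The next question was which short sequence words the members share. A list of 13 words bound by transcription factor families of the brain and other tissues was searched on both strands in 200 bp around the midpoint, as letters only. The octamer ATGCAAAT, the word recognised by POU-domain factors, was found in 79 members (4.13%), against 1.56% of null-only stretches, 1.53% of the regions shared with another WT tissue and 1.73% of evenly spaced windows. ACAATG, a core word of SOX factors, was found in 20.7% of members against 13.6%, 15.2% and 12.4%, respectively. The other 11 words stood at 0.82 to 1.24 times their share in null-only stretches. For example, ACAAAG, a related SOX word, was found in 26.2% against 21.3%, and the homeodomain word TAATTA was in 8.53% against 6.87%. The E-box CAGCTG, which bHLH factors bind, was in 16.4% against 18.9%. The word AGATAA, which zinc finger factors of blood and endoderm bind, was in 8.84% against 9.28%. No word of the list contains a CpG in its fixed letters, but the open positions of TGATNNAT can hold a CpG. Matches of different words may overlap, and a window can count for several words.

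**Figure D5:**
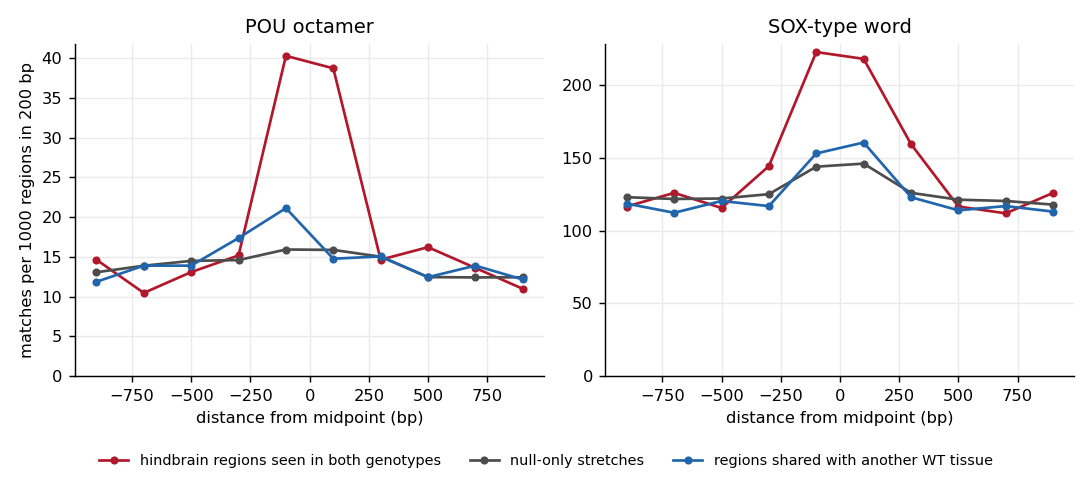
Matches per 1000 regions in each 200 bp (vertical axis) by distance from the midpoint in bp (horizontal axis) for the POU octamer (left) and the SOX-type word (right) in members, null-only stretches and regions shared with another WT tissue. Members reach 40.3 octamer matches next to the midpoint against 15.9 in null-only stretches, and the 3 sets lie close together beyond 400 bp.

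Both words peaked at the midpoint. Per 1000 members there were 40.3 octamers in the 200 bp before the midpoint and 38.7 in the 200 bp after it, and 10.5 to 16.2 in each 200 bp farther out, to 1000 bp. Null-only stretches held 15.9 and 15.9 next to the midpoint and 12.4 to 15.0 farther out. ACAATG stood at 222.8 and 218.1 per 1000 members next to the midpoint and at 111.9 to 159.5 farther out, against 144.0 and 146.1 and 117.9 to 126.0 in null-only stretches. The order of members and null-only stretches was the same at each GC content compared. At 40 to 45% GC the octamer was in 5.68% of members and 2.55% of null-only stretches, at 45 to 50% in 4.94% and 1.69%, and at 50 to 55% in 1.78% and 1.0%.

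Since members and null-only stretches differ in how the midpoint is set, the share was also taken at the midpoints of null stretches, sorted by WT libraries. The octamer was in 1.57% of stretches with no WT library (58141), 3.36% with 1 (6154), 4.12% with 2 (1482) and 2.78% with 3 or 4 (6 of 216). ACAATG was in 13.6%, 19.3%, 21.1% and 22.2%, respectively. The share also differed with the other null tissues. Among members marked in null carcass only, 5.15% held the octamer (40 of 777), against 3.06% of those marked in null heart or liver (31 of 1014) and 6.67% of those under no other null peak (8 of 120). Null-only stretches stood lower in all 3 classes, at 2.02%, 1.08% and 2.62%. The 79 octamer members were under a null heart peak in 36.7% and 17.7%, against 50.3% and 27.0% of the other 1833, and under the null liver peak in 10.1% against 24.3%. In null carcass they were at 82.3% and 87.3%, against 85.7% and 88.7%. Of the 79, 16 also held ACAATG (20.3%), a share like that of the other members (20.7%), and 36 lay in genes.

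To show the octamer in place, 30 bases around it are printed for the first 5 octamer members, ordered by the number of WT libraries, of null libraries and then by length, with every octamer in capitals and read 5′ to 3′ on the strand that carries it (NCBIM37). They lie at chr12:26912594-26912623 (minus strand), chr15:24879434-24879463 (plus), chr8:94216359-94216388 (minus), chr11:84163086-84163115 (plus) and chr5:112089966-112089995 (plus). The first of them holds 2 octamers. This set was chosen after the octamer shares were seen.
Rnf144a: tctgcggtccgATGCAAATgtATGCAAATt
9230109A22Rik: gctttcggagaATGCAAATctgtagctcat
Irx3: gaagggtgcagATGCAAATgaggttccaag
Acaca: ggaggcatgaaATGCAAATgataaagtgcg
C130026L21Rik: aagattgttttATGCAAATtccaatatctg

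The region nearest Rnf144a was under peaks of 600, 600, 500 and 400 bp in WT litters A, O, Q and Z and of 600, 800, 800 and 800 bp in the null litters. Apart from hindbrain it was under peaks in both null carcasses, at 900 and 1300 bp, and in neither null heart nor null liver. The Irx3 region lies 109202 bp from the start of Irx3, an Iroquois homeobox gene of neural patterning, and had WT peaks of 1100, 1500 and 500 bp in O, Q and Z and null peaks of 1300 to 2200 bp in all litters. It was marked in both null carcasses with peaks of 2300 bp each and in the null heart of pair a with one of 900 bp. The Acaca region, in an intron of the acetyl-CoA carboxylase gene, was marked in WT A, O and Q, in all null hindbrains and in both null carcasses only.

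The members lay mostly away from starts of genes. The midpoint of 54.2% was in a gene (52.0% to 56.5% as 95% exact binomial limits after Clopper and Pearson, which cover counting error alone), against 52.9% of null-only stretches and 41.8% of evenly spaced windows. Exons held 7.11% and introns 47.1%, against 6.92% and 46.0% of null-only stretches. By distance to the nearest start of a protein-coding gene, 17 members (0.889%) lay within 1 kb, against 2.77% of null-only stretches and 1.66% of evenly spaced windows. The median distance was 61.8 kb against 50.9 kb and 67.2 kb. By annotated feature, 42 members (2.197%) had the midpoint in the 1000 bp upstream of a start. The share was 3.484% in null-only stretches and 2.29% in evenly spaced windows. The distance count used starts of protein-coding genes, whereas the upstream count used starts of all annotated transcripts. Both put members below null-only stretches, but by feature they were close to evenly spaced windows. CpG islands held the midpoints of 7 members (0.366%, interval 0.147% to 0.753%), against 0.457% of null-only stretches and 1.10% of the regions shared with another WT tissue. Members were spread over all 19 autosomes, from 0.632 per Mb on chromosome 16 to 1.03 per Mb on chromosome 8. The median gap between neighbours was 517.5 kb, and 30 gaps were within 10000 bp.

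Of 21150 autosomal protein-coding genes, 795 (3.76%) held at least 1 member, of which 677 held 1 and 35 held 3 or more. These genes were long, with a median of 128.2 kb against 15.5 kb for all, and the count was not adjusted for gene length. Of the hindbrain null stretches inside protein-coding genes, 2.84% held a member, and gene values below are read against that share.

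The gene models with the most members were Gm20388 (a predicted gene) and Fgfr2, a fibroblast growth factor receptor, with 7 each, but in this annotation they span 4435 kb and 3009 kb and overlap other genes. Tshz2, a teashirt zinc finger factor of 438.6 kb, held 6 members in 22 null stretches. Grip1, a scaffold protein of glutamate receptors, held 5 in 36 null stretches, Dlgap2, a postsynaptic scaffold, 5 in 38, and Sox5, a SOX factor of neural and cartilage development, 5 in 69 null stretches of which 4 held a member. The next genes held 4 members each: Pdss2, an enzyme of coenzyme Q synthesis, with 12 null stretches, Prdm16, a transcriptional regulator of neural progenitors, with 19, Odz4, a teneurin of neuronal connections, with 40, and Zfp644, a zinc finger gene, with 12. Genes were ranked by the count given here, so the rank is a description.

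Within Tshz2, 3 members formed the one cluster of 3 found within gaps of 10000 bp. The first, at chr2:169824401-169825000, had WT peaks of 600 bp in O and 800 bp in Q and null peaks of 1500, 1900, 2100 and 2100 bp in A, O, Q and Z, and it was under a peak in all 5 other null libraries, which reached 5000 bp in both carcasses. The second, at chr2:169828301-169829500, had WT peaks of 1200 and 1300 bp and null peaks of 1500 to 1600 bp, and was marked in both null carcasses but in neither null heart nor liver. The third, at chr2:169835001-169835800, had WT peaks of 800 and 1000 bp, lacked a peak in null litter A and was again marked in carcass and not in heart or liver. Neighbours within 11 kb thus differed in the other tissues.

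Gene lists for the tissue, written with earlier results of these data known, gave small counts. For hindbrain patterning 2 of 32 genes held a member, and so did 3.704% of the null stretches in the 32 genes. Among them was Meis2, which encodes a TALE homeodomain cofactor of HOX proteins and held 2 members. Both Meis2 regions were marked in null heart pair a, both carcasses and liver.

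For neural progenitors 5 of 31 genes held a member (3.52% of null stretches), with Nfib, Gli2, Notch1 and Rfx4 among them. The member of Nfib, a nuclear factor I gene of neural and glial development, was 1600 bp long and lay in an intron 853 bp from the nearest start. It had WT peaks of 1600 and 2000 bp, null peaks of 2000 to 2700 bp and peaks in all 5 other null libraries. The member of Rfx4, a regulatory factor of neural tube patterning, had WT peaks of 400 and 600 bp and was marked in both null carcasses and in neither heart nor liver.

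For neuron differentiation 3 of 31 genes held a member, 6.17% of 81 null stretches. Ebf1, an early B-cell factor also used by maturing neurons, held 3, Elavl4, a neuronal RNA-binding protein, 1, and Myt1l, a neuronal zinc finger factor, 1. The Elavl4 member was of low complexity (33.9% distinct words) and had no peak in any other null tissue. For axon guidance 10 of 32 genes held a member, 3.04% of 427 null stretches, in genes with a median length of 225.9 kb. Ephb1, an ephrin receptor, held 3, Slit1 and Slit3, secreted repellents, 2 and 1, and Sema6a, a semaphorin, 1. Each of the 3 Ephb1 and 2 Slit1 members was marked in both null carcasses and in no null heart or liver library. The Slit3 member was also marked in null heart pair a and liver, with peaks of 1000 and 900 bp.

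In a list of TET, TDG and DNMT genes with further DNA repair genes, 2 of 10 genes held a member, with 8.70% of 23 null stretches. The member of Tet3, a 5-methylcytosine dioxygenase, was at chr6:83368301-83368900 with WT peaks of 500, 500 and 600 bp in A, O and Q, null peaks of 800 to 1100 bp and a peak in all 5 other null libraries. The member of Dnmt3b, a de novo DNA methyltransferase, was at chr2:153479001-153479500 with WT peaks of 500 bp in O and Q and no peak in null litter A, and outside hindbrain it was marked in the null carcass of pair b alone.

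Lists for other tissues a dissection could hold came out as follows. Heart genes held 1 member in 23 genes, in Tnni1, slow skeletal troponin I, with 1.89% of 53 null stretches. Neither 16 hepatocyte genes (14 null stretches) nor 10 erythroid genes (12 null stretches) held one. Of 10 vascular genes, Erg, Flt1 and Pecam1, which mark endothelium, held 1 each, with 4.88% of 41 null stretches. None of the 4 null stretches in Pecam1 held a member, so its member is not part of this share. With counts of this size no list can be set apart from 2.84% without a test over regions, which was not made. Peak positions carry no expression values, so the tissue of the dissections was not checked on marker RNA.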

How the data were processed

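5fC pull-down libraries (20, from E11.5 mouse embryos) were analysed. Per the study's methods and the labels, the authors trimmed reads with Trim Galore, aligned them to NCBIM37 (mm9) with Bowtie2 and called peaks per library with the MACS routine of SeqMonk (p-value 1e-05, fragments of 200 bp). The deposited peak files used here give start and end positions on a grid of 100 bp, read as 1-based, with no height, score or count. Sequencing reads were not used here. Depth is therefore unknown from these files, peak numbers differ between libraries and a missing peak is no measured absence. Regions were built by the stated rule, with genes from the GENCODE annotation and sequence from the genome of the same build. The members, lists and named genes were chosen with earlier results of these data known. Named genes were the 10 with the most members, those at the 10 longest members under all 8 hindbrain libraries and at the 6 longest under no other null library, and up to 4 per list. CpG islands were maximal-scoring segments (CpG 17, other bases -1) of at least 200 bp, GC of at least 50% and observed over expected CpG above 0.6. Sign flips over litters were exact. Python 3.11.15, numpy 2.4.6, pandas 2.3.3, scipy 1.17.1 and matplotlib 3.10.9 were used, and the region finder was tested on simulated data. Alternatives changed the thresholds, minimum length, gaps, exclusion, peak length and libraries.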

Additional observations from a re-analysis of the deposited data

Results flagged for a closer look

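Among the 4 null hindbrain libraries, litter A stood apart in the share of member midpoints under a peak, at 84.8% against 98.6%, 99.6% and 99.7%. Over all hindbrain null stretches litter A was lowest too, at 83.7% against 87.9%, 91.5% and 96.6%, and the choice of members used these peaks. About 1 in 20 groups of 4 independent values would be singled out this way without any difference. Several measures were screened in each genotype, so a flag somewhere is more likely than that. The 4 shares are also tied together, since the rule requires at least 3 of 4 null libraries. In null heart the members were lower than null-only stretches in both embryos, a mean difference of -0.98 percentage points that turned to 0.187 when only the touched bins were removed and to 7.61 without the exclusion, and was -3.50 without WT litter O and -3.33 without Q. In null carcass they were higher in both embryos, with a mean difference of 13.96, which was 8.37 without WT litter Q. The difference between the 2 tissues was not tested.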

How the results depend on the processing

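The count of members was 245 with at least 3 WT libraries required, 649 with peaks of at least 600 bp and 5372 without the exclusion of other WT peaks. Leaving out 1 hindbrain library gave 274 (without WT litter Q) to 1873, with 350 without WT litter O. The share in null carcass was 82.0% with at least 3 WT libraries, 90.3% with all 4 null libraries and 92.5% with the longer peaks, 82.1% to 90.2% leaving out a hindbrain library and 85.5% to 88.7% leaving out a carcass. The excess over null-only stretches in carcass was 8.92 percentage points with at least 3 WT libraries and 8.59 with longer peaks, and 8.37 to 17.4 leaving out a library, so it stayed above 0 under these settings. It was below 0 among null stretches of up to 400 bp under at least 2 WT libraries (30.8% and 34.6% against 50.3% and 64.2% with none) and in those under all 4 (37.5% and 40.6%). In heart the difference was -3.83 with at least 3 WT libraries, -3.05 with 4 null libraries, -1.45 from 400 bp, -0.18 with longer peaks, -0.229 without low-complexity windows and -3.50 to -0.745 leaving out a library. It turned to 0.187 when only the touched bins were removed and to 7.61 without the exclusion. In liver it was -3.61 with 4 null libraries and 11.8 without the exclusion, with shares of 42.6% without the exclusion, 27.0% with longer peaks and 11.9% when the set-aside library was averaged in. The GC difference was 1.11 percentage points with at least 3 WT libraries and -0.0540 to 1.08 leaving out a library. The CpG difference, 2.45 per 500 bp, was 3.7 with at least 3 WT libraries, 3.07 without the exclusion, 3.16 with longer peaks and 2.39 to 3.40 leaving out a library, and 1.35 in 200 bp. The share in genes was 49.4% with at least 3 WT libraries, 51.4% without the exclusion, 50.7% for protein-coding genes and 49.7% to 54.4% leaving out a library. The octamer share was 2.46% without the exclusion and 3.42% to 4.40% leaving out a library. The causes were not tested. The alternatives for the CpG, octamer and null-only differences, and those without low-complexity windows, were chosen after seeing the data.

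Each litter gave 1 WT and 1 null hindbrain, but WT and null were not tested against each other, since the peaks of both chose the regions.

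The peak files used here hold no read numbers, so depth limits are unknown. WT litters A and Z, with few peaks, weigh little, and the members largely describe litters O and Q. Null carcass and heart rest on the same 2 embryos and null liver on 1 of them.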
